A study of Bos taurus with 90 samples.

Results

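Tenascin C, encoded by TNC (ENSBTAG00000000575), was followed through the liver of Charolais (CH) and Holstein-Friesian (HF) steers that differed in residual feed intake (RFI), the feed an animal eats beyond what its size and growth predict. TNC is 1 of the 24616 genes in the deposited count table. It was selected on its measured counts in CH steers offered zero-grazed grass, which separated the RFI groups, so that its values in those 6 steers are given here as a description, without a test.

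The 90 liver biopsies were taken at the end of 3 dietary phases that all steers passed through in the same order. H1, in the growing stage, and H2, in the finishing stage, used one high-concentrate diet of mainly rolled barley (860 g/kg) with a limited amount of grass silage, and ZG, between them, was freshly cut grass brought to the animals. Within breed and phase, steers were ranked by RFI and biopsies were sequenced from both extremes, where low RFI means that less feed was eaten than predicted. For CH there were 9 low and 11 high RFI steers in H1, 3 and 3 in ZG, and 9 and 8 in H2. For HF there were 7 low and 9 high RFI steers in H1, 10 and 8 in ZG, and 5 and 8 in H2. The steers were bought from commercial herds, and the labels name no intervention other than diet. RFI group belongs to a phase and not to an animal, and 6 of the 14 steers with libraries from more than 1 phase of a breed changed group between phases. Steer number 1797 appears under both breed labels.

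Tenascin C is a large glycoprotein of the extracellular matrix, in which identical chains join at one end to form a star-shaped hexamer. It binds fibronectin and cell-surface integrins and loosens the attachment of cells to fibronectin. The protein is scarce in most healthy adult tissues and is laid down during development, wound repair and inflammation. In liver, activated hepatic stellate cells are a known source, and fragments and domains of the protein are known to act on Toll-like receptor 4 of immune cells.

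TNC was read well above the counting limit in every library. Its counts ranged from 58 to 4453 per library, so that counting error alone amounted to at most 13.1% of a value. In CPM, the unit used below for levels, counts are scaled to one common library size after correction for library composition. On that scale TNC ranged from 5.10 to 139, a 27.3-fold range with a median of 21.0. It exceeded 80 CPM in 8 of the 90 libraries and stayed under 10 CPM in 17. The SD of log2 CPM within groups was 0.98, larger than for 98.2% of the 2175 genes of similar abundance, for which the median SD was 0.29. The 12 groups of breed, phase and RFI accounted for 37.2% of the variance of TNC, and the rest lay between steers of one group.

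**Figure D1:**
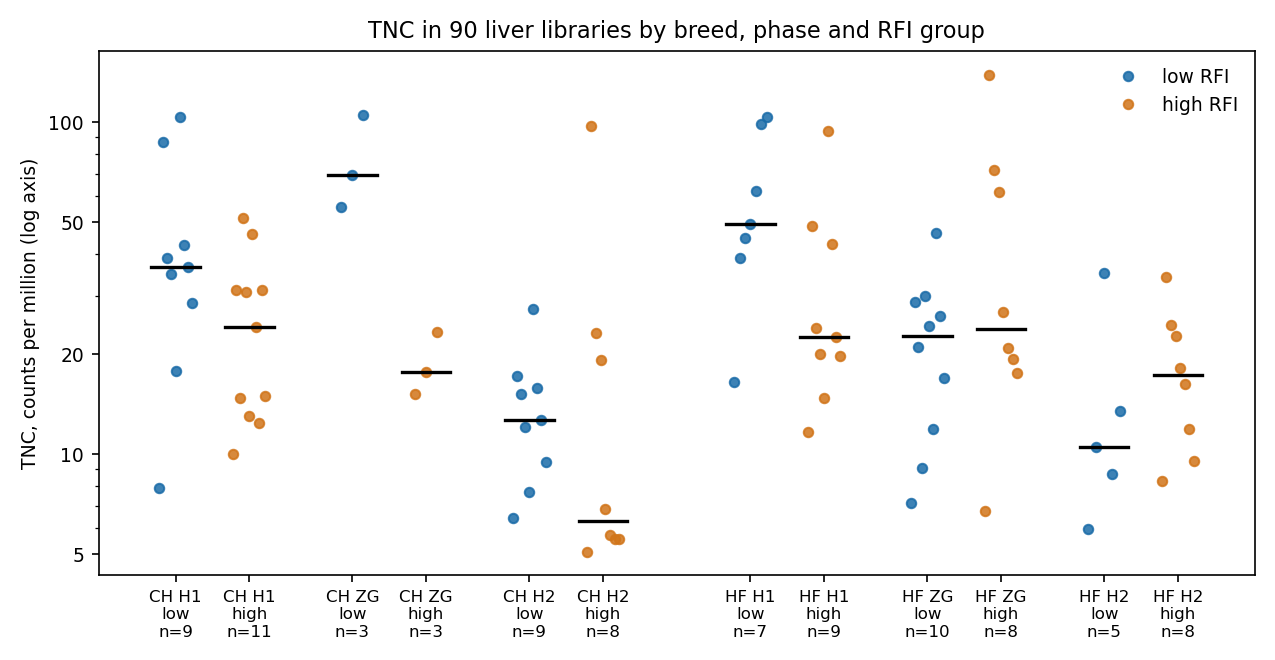
TNC in each of the 90 libraries, in CPM on a log axis, by breed, phase and RFI group, with a black line at each group median. The 3 low RFI steers of CH ZG lie above the 3 high RFI steers, while the low and high groups overlap in the other 5 pairs and the medians of the H2 groups lie lowest.

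In CH steers offered ZG, the 3 low RFI steers had 55.5, 69.2 and 105.4 CPM of TNC, and the 3 high RFI steers had 15.2, 17.7 and 23.3 CPM. The groups did not overlap. With 3 steers in each, full separation can also arise by chance, and the share of all genes that show it here was not worked out. The means were 76.7 ± 25.8 CPM (SD, n = 3) and 18.7 ± 4.16 CPM (SD, n = 3). The fold fitted by edgeR, low over high RFI, was 4.15, or 2.05 on the log2 scale. Leaving out each of these steers in turn gave log2 fold changes from 1.74 to 2.23. In bulk tissue such as this, more cells that express a gene and more RNA in each of them cannot be told apart. Levels of LBP, a plasma protein that binds bacterial lipopolysaccharide, went the same way in these 6 libraries, from 148 to 582 CPM in the low and from 52.3 to 90.1 CPM in the high RFI steers. SERPINA3, a protease inhibitor released into plasma in the acute phase response, had from 250 to 1184 CPM in the low and from 143 to 240 CPM in the high RFI steers. HP, encoding the haemoglobin-binding acute phase protein haptoglobin, overlapped between the groups, at 37.4, 862 and 2386 CPM against 10.9, 16.6 and 84.02 CPM. The study had called LBP, SERPINA3 and HP between the RFI groups of CH ZG. Their direction in these 6 libraries was therefore known before they were named here. Whether these genes and TNC share a part in the difference was not tested.

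The remaining 5 comparisons of low with high RFI asked whether that direction held in the other phases and in the other breed. None of them passed the test for TNC, and the direction was not the same in all. Each had a fit of its own across all genes (quasi-likelihood test of edgeR), and a gene was called at a Benjamini-Hochberg adjusted p under 0.1. Over all genes tested, edgeR called 0.0155% in CH H1 (2 of 12920) and 0% in CH H2, HF H1, HF ZG and HF H2. Genes with an unadjusted p under 0.05 numbered 1518 in CH H1, 355 in CH H2, 863 in HF H1, 261 in HF ZG and 435 in HF H2. DESeq2 called 160, 4, 26, 2 and 5 genes in the same order. The 95% intervals for TNC are wide, and a p above the threshold does not show that the RFI groups had the same level.

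In H1, TNC was higher on average in low RFI steers of both breeds, with overlapping groups. For CH H1, low RFI steers ranged from 7.94 to 103.7 CPM with a median of 36.7, and high RFI steers from 10.0 to 51.5 CPM with a median of 24.1. The log2 fold change was 0.80 (SE 0.40, 95% interval -0.05 to 1.65), with an adjusted p of 0.447 from edgeR. The values of low RFI steers 1792 and 950 lay above every high RFI steer, and the lowest value of all also belonged to a low RFI steer, 1846. For HF H1, the low RFI steers ranged from 16.5 to 103.4 CPM with a median of 49.3 and the high RFI steers from 11.7 to 93.8 CPM with a median of 22.5. The log2 fold change was 0.84 (SE 0.45, 95% interval -0.13 to 1.80), with an adjusted p of 0.767 from edgeR. The highest value of the HF high RFI group was that of steer 2064, without which the log2 fold change was 1.22, with an unadjusted p of 0.00669 and an adjusted p of 0.704 from edgeR.

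On grass, the means of HF steers had the opposite order to those of CH steers, a difference that was not tested because the CH values had chosen the gene. The 10 low RFI steers of HF ZG ranged from 7.13 to 46.2 CPM with a median of 22.7, and the 8 high RFI steers from 6.73 to 139 CPM with a median of 23.8. The medians lay close together, while 3 high RFI steers, at 61.6, 71.6 and 139 CPM, exceeded every low RFI steer. The log2 fold change was -1.04 (SE 0.47, 95% interval -2.01 to -0.06), with an unadjusted p of 0.0389 and an adjusted p of 1.00 from edgeR. Steer 2272, at 139 CPM, carried much of this value, since the log2 fold change without it was -0.55 (adjusted p = 0.874 from edgeR). That library also had the highest HP (14682 CPM), LBP (1190 CPM) and SERPINA3 (2741 CPM) of its group, and their part in its TNC level was not tested.

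In H2 most levels were low and the RFI groups overlapped. For CH H2, low RFI steers ranged from 6.42 to 27.4 CPM with a median of 12.7, and high RFI steers from 5.10 to 97.3 CPM with a median of 6.28. All 9 low RFI steers were above the median of the high RFI steers, but steer 419 of the high RFI group, at 97.3 CPM, was above every low RFI steer. This library decided the sign of the fitted difference. The log2 fold change was -0.60 (edgeR adjusted p = 0.998, SE 0.55) with it and 0.44 (adjusted p = 1.00 from edgeR) without it, and the difference of the mean log2 CPM was 0.16 with it. Like the HF steer with the highest TNC, steer 419 had the highest HP (26048 CPM), LBP (1287 CPM) and SERPINA3 (1998 CPM) of its group. For HF H2, the 5 low RFI steers had 5.97, 8.74, 10.5, 13.5 and 35.1 CPM, and the 8 high RFI steers ranged from 8.29 to 34.2 CPM with a median of 17.3. All low RFI steers but 1657 lay under that median. The log2 fold change was -0.30 (SE 0.43, 95% interval -1.22 to 0.62), with an adjusted p of 1.00 from edgeR. Without steer 1657 it was -0.91, with an unadjusted p of 0.0248 and an adjusted p of 1.00 from edgeR. Without steer 1797 it was -0.098.

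Exact two-sided permutation tests of the mean log2 CPM, over all ways to divide the steers of each comparison, gave p = 0.142 for CH H1, 0.796 for CH H2, 0.0690 for HF H1, 0.222 for HF ZG and 0.354 for HF H2. Adjusted over the 5 tests, the smallest exact permutation p was 0.345. One RFI effect fitted over the 84 libraries outside CH ZG had a log2 fold change of -0.03 (SE 0.24, 95% interval -0.50 to 0.43), with an adjusted p of 1.00 from edgeR. Its interval as a fold ran from 0.705 to 1.35. Over all genes this fit called 0%, with 565 genes at an unadjusted p under 0.05 and 2 genes called by DESeq2. Fitted with the steer as a replicate block, the same effect was 0.19 (adjusted p = 1.00 from limma-voom), so that its sign depended on how the steers were treated.

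Within HF, where both phases had enough steers, the RFI effect in ZG was compared directly with that in H1. The difference was -1.85 on the log2 scale (SE 0.64, 95% interval -3.15 to -0.56), with an unadjusted p of 0.00604 and an adjusted p of 0.996 from edgeR. The test was added once the opposite signs had been seen, and over all genes it called 0%, with 511 genes at an unadjusted p under 0.05. Without steer 2272 the difference was -1.37 and without steer 2064 it was -2.23. Both values had the same sign as the main one, and their adjusted p from edgeR was 0.929 and 0.866.

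**Figure D2:**
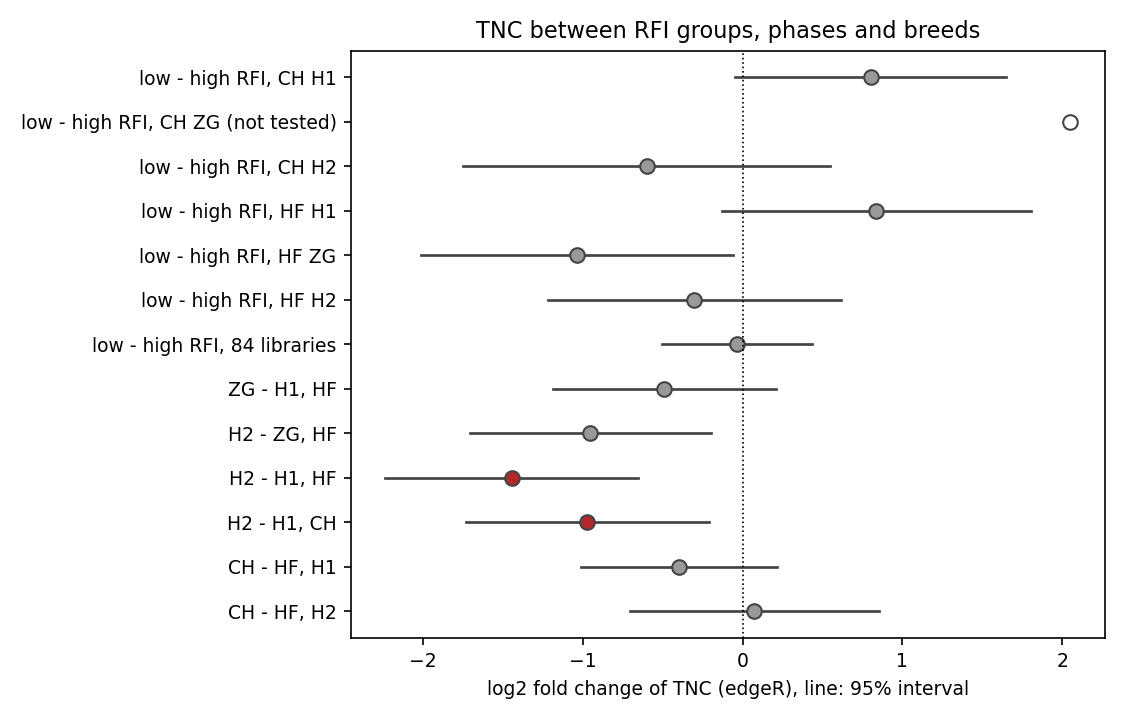
Log2 fold changes of TNC from edgeR for each comparison, with lines for the 95% interval. Red points mark the comparisons in which TNC passed the test, H2 against H1 in HF (-1.44) and in CH (-0.97), grey points those in which it did not, and the open point the CH ZG contrast (2.05), shown without interval or test.

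Between phases TNC did differ. It fell from H1 to H2 in both breeds, although the diet of these phases was the same. In HF the level was 44.5 ± 30.6 CPM (SD, n = 16) in H1, 32.5 ± 31.9 CPM (SD, n = 18) in ZG and 16.9 ± 9.65 CPM (SD, n = 13) in H2. H2 stood at 0.368 times the level of H1 (log2 fold change -1.44, SE 0.39, adjusted p = 0.00292 from edgeR). In CH the level was 33.9 ± 24.6 CPM (SD, n = 20) in H1 and 17.2 ± 21.7 CPM (SD, n = 17) in H2, and the fitted change was -0.97 on the log2 scale (edgeR adjusted p = 0.0244, SE 0.37). Steer 419, the highest of the CH H2 libraries, lessened this value, which was -1.54 without it (adjusted p = 3.45e-05 from edgeR). The 6 CH ZG libraries, whose RFI contrast chose the gene, had 47.7 ± 35.8 CPM (SD, n = 6) and were not set against the other phases.

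A large part of the transcriptome separated these phases. For H2 against H1, edgeR called 61.4% of genes in HF and 68.1% in CH, in nearly equal numbers higher (4177 and 4575) and lower (4090 and 4434). A call by itself therefore says little about TNC. By p it ranked 2909 of 13472 genes in HF and 7358 of 13228 in CH, while 2.81% of genes in HF and 8.15% in CH had a lower log2 fold change. Phase came with age, growth stage and the diets fed before it, and these cannot be told apart from each other in this design. The median normalization factor also moved with phase, from 1.11 in H1 to 0.987 in H2 for HF and from 1.06 to 0.903 for CH. Across the 90 libraries its Pearson correlation with TNC was 0.36 and within groups 0.11, and its part in the change was not tested.

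The steps between neighbouring phases in HF did not pass the test. From H1 to ZG the log2 fold change was -0.49 (edgeR adjusted p = 0.237, SE 0.35, 95% interval -1.19 to 0.21), where 57.7% of all genes were called. From ZG to H2 it was -0.95 (SE 0.38, 95% interval -1.71 to -0.20), with an unadjusted p of 0.0145 and an adjusted p of 0.167 from edgeR, where 5.05% of all genes were called. Without steer 2272 of HF ZG the second step was -0.65 (adjusted p = 0.342 from edgeR). Low values gathered in H2, with 12 of the 30 H2 libraries under 10 CPM against 2 of 36 in H1 and 3 of 24 in ZG. High values were rare there, with 1 H2 library above 40 CPM against 13 in H1 and 7 in ZG.

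Steers biopsied in both concentrate phases showed the same fall within animals. Of the 8 such steers, 7 had less TNC in H2 than in H1, with a mean difference of -1.52 ± 1.31 on the log2 scale (SD, n = 8) and a two-sided p of 0.0234 from an exact sign-flip test. The H2 level was on average 0.348 times that of H1. HF steer 5632 went from 98.7 CPM in H1 to 26.1 in ZG and 9.53 in H2, and CH steer 364 from 51.5 to 5.73 CPM. CH steer 1320 was the exception, at 14.7 CPM in H1 and 23.1 CPM in H2. These libraries are also part of the comparison between phases, so that the 2 results are not independent.

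**Figure D3:**
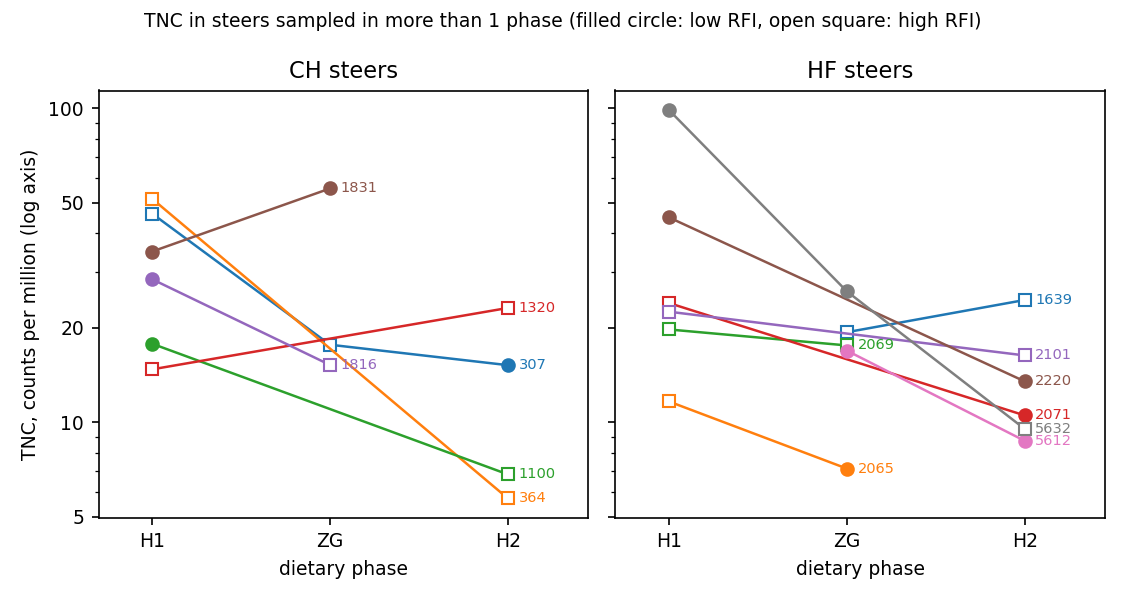
TNC in CPM on a log axis for the 14 steers with libraries from more than 1 phase, by breed, each line joining the libraries of 1 steer. Filled circles mark low RFI and open squares high RFI in that phase. TNC is lower in H2 than in H1 in 7 of 8 steers, and CH steer 1320 rises from 14.7 to 23.1 CPM.

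In the steers with both H1 and ZG libraries, TNC was lower in ZG in 5 of 6, with a mean of -0.73 ± 0.91 (SD, n = 6) on the log2 scale. The exception was CH steer 1831, at 35.0 CPM in H1 and 55.5 CPM in ZG, which was in the low RFI group both times. CH steer 1816 moved from the low to the high RFI group and from 28.6 to 15.2 CPM, and CH steer 307, of the high RFI group in both phases, went from 46.2 to 17.7 CPM. These 3 steers are among the 6 CH ZG libraries by which the gene was chosen, so the values are given without a test. From ZG to H2, TNC was lower in 3 of 4 steers, with a mean of -0.57 ± 0.79 (SD, n = 4).

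The breeds did not differ detectably in TNC. In H1, CH stood at 0.758 times HF (log2 fold change -0.40, SE 0.30, 95% interval -1.01 to 0.21, adjusted p = 0.604 from edgeR), where 4.22% of all genes were called. In H2 the log2 fold change of CH over HF was 0.07 (edgeR adjusted p = 1.00, SE 0.38, 95% interval -0.71 to 0.85), where 0.633% were called. The fall from H1 to H2 differed between the breeds by 0.40 on the log2 scale (edgeR adjusted p = 1.00, SE 0.51, 95% interval -0.63 to 1.43). Over all genes that test called 0%, with 334 at an unadjusted p under 0.05. ZG was not compared between breeds, because its CH libraries had been used to choose the gene.

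Ordered by mean log2 CPM, the 12 groups ran from low RFI CH ZG (6.21), low RFI HF H1 (5.68) and low RFI CH H1 (5.13) through high RFI HF ZG (4.95), high RFI HF H1 (4.75), high RFI CH H1 (4.47), low RFI HF ZG (4.28) and high RFI CH ZG (4.21) to the H2 groups. Those were high RFI HF (4.05), low RFI CH (3.67), low RFI HF (3.61) and high RFI CH (3.51). No neighbouring groups in this order lay further apart than the larger of their SDs. The 4 H2 groups nonetheless took the last 4 places.

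The genes with the pattern most like that of TNC over the 90 libraries were sought among the 13944 others that passed the filter on low counts. Likeness was Pearson's r of log2 CPM, and its 1st and 99th percentiles over these genes were -0.46 and 0.41. The libraries share breed, phase, sequencing depth and, in part, the steer, and the correlations are given as a description. The 2 highest values belonged to ENSBTAG00000008571 (r = 0.62, Spearman's rho = 0.66) and ENSBTAG00000026275 (r = 0.62, rho = 0.62), which have no name in the sources used here. Of the 10 most alike genes only CHI3L2, which encodes a chitinase-like protein without chitinase activity, had a name (r = 0.54, rho = 0.51). Within groups its r was 0.49. Over all groups, without the 2 libraries whose TNC lay farthest from the median, its r was also 0.49. FAM213A, which encodes a peroxiredoxin-like protein, ran most strongly against TNC of all genes (r = -0.69, rho = -0.66, within groups -0.59, and -0.68 without the 2 farthest libraries). Among named genes ABHD14B, a hydrolase of the alpha/beta family, was next and 4th over all genes, with r = -0.63 (rho = -0.61, within groups -0.42).

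From H1 to H2, the log2 fold change of FAM213A was 0.66 in HF (SE 0.14) and 0.78 in CH (SE 0.10), and that of ABHD14B was 0.43 in HF and 0.32 in CH. CHI3L2 had -2.34 in HF (SE 0.82) and 0.63 in CH (SE 0.53). These genes were picked by their correlation with TNC over the same libraries, so the values are given without a test.

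The surroundings of TNC in its own pathway could be read for few genes. Names were held for 328 identifiers, which the study had listed because they differed between RFI groups in these same samples. Of 26 known inducers and regulators of TNC only JUN matched, of the other members of the tenascin family none, and the same held for its receptors, the structural matrix, matrix proteases and all lists of liver cell markers. Hepatocyte, stellate, Kupffer, endothelial and other cell types could therefore not be checked. JUN, a subunit of the AP-1 transcription factor, fell from H1 to H2 in both breeds, as TNC did. There 61.4% of all genes were called in HF and 68.1% in CH. Its log2 fold changes were -0.43 in HF (edgeR adjusted p = 0.0212, SE 0.16) and -0.61 in CH (adjusted p = 2.77e-06, SE 0.10). From H1 to ZG in HF, where 57.7% of all genes were called, JUN had -0.48 (adjusted p = 0.00655 from edgeR). From ZG to H2 in HF it had 0.04 (adjusted p = 0.916 from edgeR), against -0.95 for TNC. Between the RFI groups of CH ZG, low over high, it had -0.56, against 2.05 for TNC, both without a test. The r of JUN with TNC over the 90 libraries was 0.36 (rho = 0.36, within groups 0.20).

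Among the named genes, 14 encode proteins of the matrix, its modification or cell adhesion. This list was drawn up after their presence among the names and their values were seen, so its counts and medians are a description. From H1 to H2, where 61.4% of all genes were called in HF and 68.1% in CH, 9 of the 14 fell and 0 rose in HF, with a median log2 fold change of -0.78 against 0.03 over all genes, and 7 fell and 1 rose in CH, with a median of -0.49 against 0.03. Those that fell in both breeds were SPON2, ANOS1, ITIH5, GPC1, VASN, PTK7 and BCAR1. VASN, a membrane protein that binds transforming growth factor beta, had -1.65 in HF (adjusted p = 0.000662 from edgeR) and -1.90 in CH (adjusted p = 8.53e-08). GPC1, a heparan sulphate proteoglycan of the cell surface, had -1.40 in HF (adjusted p = 0.00244 from edgeR) and -1.32 in CH (adjusted p = 3.87e-05). BCAR1, an adaptor of integrin signalling, had -1.65 and -1.84 (adjusted p = 0.000546 and 5.73e-08 from edgeR). JAM2, a junctional adhesion molecule, was the one that rose in CH, by 0.55 (adjusted p = 3.20e-05 from edgeR). Between the RFI groups of CH ZG, low over high, most of the genes that fell in both breeds went against TNC, which had 2.05. Their log2 fold changes were -1.88 for SPON2, -1.73 for VASN, -1.71 for GPC1, -1.56 for BCAR1, -1.14 for ITIH5, -0.89 for PTK7 and 0.27 for ANOS1. These CH ZG values are given without a test.

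Few of these 14 genes followed TNC from library to library. Their r with TNC ran from -0.20 for CTTN, which binds cortical actin, to 0.40 for NRCAM, a neuronal cell adhesion molecule, and was positive for 11 of 14. VASN, GPC1 and BCAR1 had r = 0.22, 0.17 and 0.22 over all libraries and 0.0030, 0.011 and 0.013 within groups. TGM2, which crosslinks matrix proteins, had 0.20, and P4HA1, which hydroxylates collagen, had 0.37. From ZG to H2 in HF, where 5.05% of all genes were called, 4 of the 14 fell, NRCAM, P4HA1, NEDD9 and JAM2, and 0 rose. From H1 to ZG in HF, where 57.7% of all genes were called, 5 fell and 3 rose. Between breeds in H1, where 4.22% of all genes were called, NEDD9, an adaptor of focal adhesions, was the single one called. It was higher in CH (log2 fold change 0.53, adjusted p = 0.0910 from edgeR, close to the threshold of 0.1). In the 5 RFI comparisons edgeR called 0.0155% of all genes in CH H1 and 0% in the others, and 0% over the 84 libraries. None of the 14 was called in these fits. Their names come from the study's own lists of genes that differed between RFI groups. TGM2, which the study called in CH H1, had a log2 fold change of -1.54 there (adjusted p = 0.216 from edgeR).

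Acute phase genes varied with TNC between steers of one group. Of the 10 genes of that list 6 had a name, too few to describe the list as a whole. Their r with TNC was 0.48 for SERPINA3, 0.40 for LBP, 0.36 for HP, 0.26 for complement C5, and 0.24 and 0.15 for the fibrinogen chains FGA and FGG. Within groups all but SERPINA3 were higher, at 0.47 for LBP, 0.43 for HP, 0.41 for C5, 0.39 for FGA and 0.32 for FGG, and SERPINA3 was again 0.48. Without the 2 libraries whose TNC lay farthest from the median, r over all groups fell to 0.41 for SERPINA3, 0.31 for LBP and 0.29 for HP. The libraries left out were those of steer 2272 (139 CPM of TNC) and CH ZG steer 357 (105.35 CPM). Steer 419, with 97.3 CPM of TNC and 26048 CPM of HP, was kept. The r within groups was not worked out without any of these libraries. The library with the most TNC in its group also had the most SERPINA3 in 7 of the 12 groups, the most LBP in 6 and the most HP in 5. These counts include the CH ZG groups of 3 libraries each, in which the gene was chosen. Neither the share expected by chance nor the spread of within-group r over all genes was worked out.

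**Figure D4:**
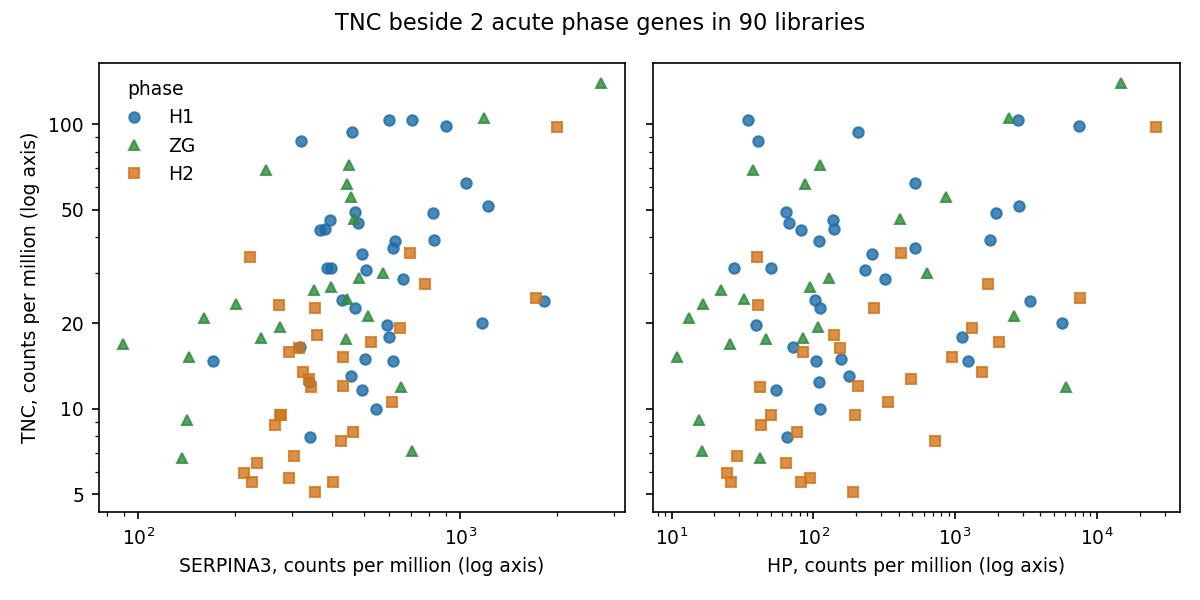
TNC against SERPINA3 (left) and HP (right) in the 90 libraries, all in CPM on log axes, with the phase marked by symbol. The libraries of steer 2272 (139 CPM of TNC) and steer 419 (97.3 CPM) lie at the upper right of both panels, while several H1 libraries reach similar TNC at lower HP.

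From H1 to H2 the 6 genes were compared in the same fits as TNC. In CH, where 68.1% of all genes were called, 4 of the 6 rose, HP by 1.83 on the log2 scale (edgeR adjusted p = 0.0791, SE 0.91), LBP by 0.58 (adjusted p = 0.0805), FGG by 0.49 (adjusted p = 0.00534) and FGA by 0.32 (adjusted p = 0.0403), and 0 fell. The CH H2 libraries included steer 419, with 26048 CPM of HP and 1287 CPM of LBP. Changes of these genes without it were not worked out. The CH medians of HP in H1 and H2 were 259 and 489 CPM in low RFI steers, and 112 and 87.8 CPM in high RFI steers. For LBP they were 143 and 155 CPM in low RFI steers, and 160 and 168 CPM in high RFI steers. In HF, where 61.4% of all genes were called, none of the 6 was called. HP had a log2 fold change of -0.86 there (SE 1.08), LBP -0.23 (SE 0.40), FGG 0.23 (SE 0.19), FGA 0.09 (SE 0.17) and C5 0.14 (SE 0.15), and SERPINA3 had -0.60 (edgeR adjusted p = 0.141, SE 0.35). From H1 to ZG in HF, where 57.7% of all genes were called, FGG and FGA rose by 0.42 each. In the 5 RFI comparisons edgeR called none of the 6, against 0.0155% of all genes in CH H1 and 0% in the others. The study, which used DESeq2, had called HP between the RFI groups of CH H1. Its log2 fold change there was 0.72 (adjusted p = 0.797 from edgeR). High TNC without high HP also occurred, as in HF steer 2064, which had 93.8 CPM of TNC with 207 CPM of HP, the median of its group.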

How the data were processed

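The authors trimmed 50 bp single-end reads with cutadapt, mapped them with STAR (genome build UMD3.1) and deposited raw counts per Ensembl gene, with no normalization. The version of STAR is 2.5.3a in the submitters' processing notes, and the study's methods give another. A stranded kit was used and the counting strand is not given in the sources used here. Counts per library ranged from 9097695 to 63621304 (median 18858293), which sets the precision of each value. Groups follow the breed, diet and RFI labels.

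CPM were computed with 1 TMM normalization over the 90 libraries, and log2 CPM with a prior count of 2. Tests used edgeR 4.0.16 in R 4.3.3 (TMM, filterByExpr, robust quasi-likelihood fits, Benjamini-Hochberg adjustment over all genes). RFI comparisons were fitted within breed and phase, and phase and breed comparisons with RFI group as a covariate. The SE is the absolute log2 fold change divided by the square root of F. Fits were tested on simulated data. Alternatives used DESeq2 1.42.0, other filters, size factors, one fit, libraries left out, and limma 3.58.1 with the steer as a replicate block. Steer numbers pair libraries of one animal. Over 18 such pairs the correlation of deviations from group means had a median of 0.25 and exceeded 0.1 in 14. It was lowest for the ZG and H2 libraries of HF steers 1639 (-0.42) and 5612 (-0.097). Pairs of different steers were not correlated for comparison.

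The gene, the lists and the tests were chosen with earlier results of these data known. Genes named beside TNC are members of those lists, the named genes among the 10 most and 5 least like TNC, and the 14 matrix and adhesion genes, which were chosen after their values were seen. Gene names come from the study's lists, and sequences and positions were not used here. Figures used Python 3.11.15 and matplotlib 3.10.9.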

Additional observations from a re-analysis of the deposited data

Results flagged for a closer look

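Of the 9 groups with 4 to 10 libraries, 3 held a library whose TNC lay far from the others by Dixon's test, where chance flags about 1 group in 20 of normally distributed values. The test was made on CPM. On log2 CPM, the scale of the permutation tests, 0 libraries passed the critical value. In high RFI CH H2 it was steer 419, at 97.3 CPM, with a gap to the next library of 0.804 of the range of the group (0.489 on log2 CPM, critical value 0.526). In high RFI HF H1 it was steer 2064, at 93.8 CPM, with a gap of 0.549 (0.315 on log2 CPM, critical value 0.493), and in low RFI HF H2 it was steer 1657, at 35.1 CPM, with a gap of 0.742 (0.541 on log2 CPM, critical value 0.710). Beside these values, HP stood at 26048, 207 and 416 CPM and SERPINA3 at 1998, 460 and 696 CPM in the same order.

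The RFI effect of HF differed between ZG and H1 by -1.85 on the log2 scale, with an unadjusted p of 0.00604 and an adjusted p of 0.996 from edgeR, so that it does not pass the correction over all genes.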

How the results depend on the processing

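Of 100 alternative values for the tested comparisons of TNC, 97 kept the direction and the side of the threshold, and 3 changed sign, each for a comparison that was not called. The 11 for CH ZG, which had no test, kept the direction. The RFI effect of CH H2 became 0.44 without steer 419, the RFI effect over 84 libraries became 0.19 with the steer as a replicate block, and the breed effect in H2 became -0.0016 without the libraries numbered 1797. Leaving out each steer in turn gave 1.74 to 2.23 in CH ZG and -0.91 to -0.098 in HF H2, where the 5 low RFI steers were left out. The block changed no call of TNC: H2 against H1 was -1.30 in HF (adjusted p = 0.00384 from limma-voom) and -1.30 in CH (adjusted p = 0.000324). Over all alternatives H2 against H1 stayed between -1.65 and -1.30 in HF (adjusted p at most 0.00692) and between -1.54 and -0.94 in CH (adjusted p at most 0.0425).

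Counts of called genes moved more. DESeq2 called 160 genes in CH H1 (edgeR 2), and 4, 26, 2 and 5 in CH H2, HF H1, HF ZG and HF H2 and 2 over the 84 libraries (edgeR 0 in each), 1025 for HF H2 against ZG (681) and 158 between breeds in H2 (82). One fit of all groups called 4, 5, 13 and 2 in CH H1, CH H2, HF H1 and HF ZG. A minimum of 10 counts in every library left 1 in CH H1 and 34 between breeds in H2, and no filter gave 8 over the 84 libraries. Counting error was at most 13.1% of a TNC value, and an effect of depth beyond it was not tested.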
